A study of Mus musculus with 10 samples.

Results

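The 7 genes described here encode the natural killer (NK) cell receptor NKp46 (Ncr1), the T-box transcription factors Eomes and T-bet (Tbx21), the kinase Txk, the cytokine interleukin-18 (Il18) and both chains of its receptor (Il18r1 and Il18rap). They were chosen by name: each is the single gene symbol that the platform table gives to a probe set, a group of probes read as 1 value. Each of the 7 genes had 1 probe set, so they are 7 of 21789 probe sets with a single symbol and of 35556 in all. The samples were melanoma tumours of male mice, 5 from mice labelled Exercise and 5 from mice labelled non-Exercise, each measured as total RNA on 1 Affymetrix whole-transcript array. The labels used here give no strain, age, form or length of exercise, or other treatment. Arrays are called by the number in their label: 300, 301, 306, 309 and 310 for Exercise, and 326, 327, 329, 330 and 331 for non-Exercise. The labels do not say that the numbers are separate animals, so a p-value here reflects only how far these tumours varied. The title of the series names recruitment of NK cells into tumours of exercising mice as the question that the comparison of the groups addresses.

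NK cells are innate lymphocytes that kill tumour cells and secrete interferon gamma. NKp46 sits on their surface, has almost no signalling part of its own and passes its signal through the adaptors CD3-zeta (Cd247) and the Fc receptor gamma chain (Fcer1g) to the kinases Syk and ZAP-70. T-bet and Eomes drive the development of NK cells and of cytotoxic T cells. Interleukin-18 is made as a precursor, mostly by myeloid and epithelial cells, and caspase-1 cuts it into its active form inside inflammasomes. A soluble decoy, the interleukin-18 binding protein (Il18bp), captures it. On NK and T cells the free cytokine binds the alpha chain Il18r1, the accessory chain Il18rap joins, and MyD88 and the IRAK kinases carry the signal, which together with interleukin-12 induces interferon gamma.

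Values are log2 levels per probe set after quantile normalization, and a change is the Exercise mean minus the non-Exercise mean. Every gene was tested with limma's moderated test, and a gene was called at an adjusted p under 0.05 (Benjamini-Hochberg over 19938 genes). Medians of the arrays as deposited ran from 8.64 to 8.77, and the correlation of 2 arrays across genes from 0.960 to 0.996. The mean of 10 melanocytic markers was 12.76 to 12.96 in Exercise and 12.82 to 12.97 in non-Exercise arrays, so the labelled tumour type was present in every array. In 3 Exercise arrays, 306, 309 and 310, the mean of 11 hepatocyte markers was 9.96, 9.82 and 9.15, against 7.27 to 7.72 in the other arrays, and albumin (Alb) was 12.28 to 12.97 against 6.84 to 9.22. The values of the 7 genes, the paired-gene shifts and the main counts are therefore also given without these 3 arrays, an alternative chosen with earlier results of the data known. That fit sets 2 Exercise arrays against 5 non-Exercise arrays.

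None of the 7 genes was called in either direction, while 17.0% of all genes were (6.35% higher and 10.6% lower in Exercise). The change was above 0 for 6 of the 7 and below 0 for Il18, and the median change was 0.29 against -0.02 over all genes. At an unadjusted limma p under 0.05, Ncr1, Tbx21 and Il18rap were higher, which is 3 of 7, and 0 were lower; by that rule 11.2% of all genes were higher and 18.0% lower, 29.2% in all. At an adjusted p under 0.10 the same 3 were higher and 0 lower, where 8.85% of all genes were higher and 14.2% lower. The exact Wilcoxon test called 0 genes in the whole table after adjustment, and Il18rap was the 1 member under an unadjusted p of 0.05 by it. No member had all 5 Exercise arrays above or below all 5 non-Exercise arrays, an order seen in 3.74% of all genes upward and 8.33% downward. Without the 3 arrays, 0 members were called higher and Il18 was called lower, where 3.78% and 8.09% of all genes were called. With 1 array left out, 857 to 1528 of all genes were called higher and 1435 to 2331 lower, against 1266 and 2118 with all arrays. These shares and counts of all genes are also the background for the counts of list genes and the genes without overlap given below.

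**Figure D1:**
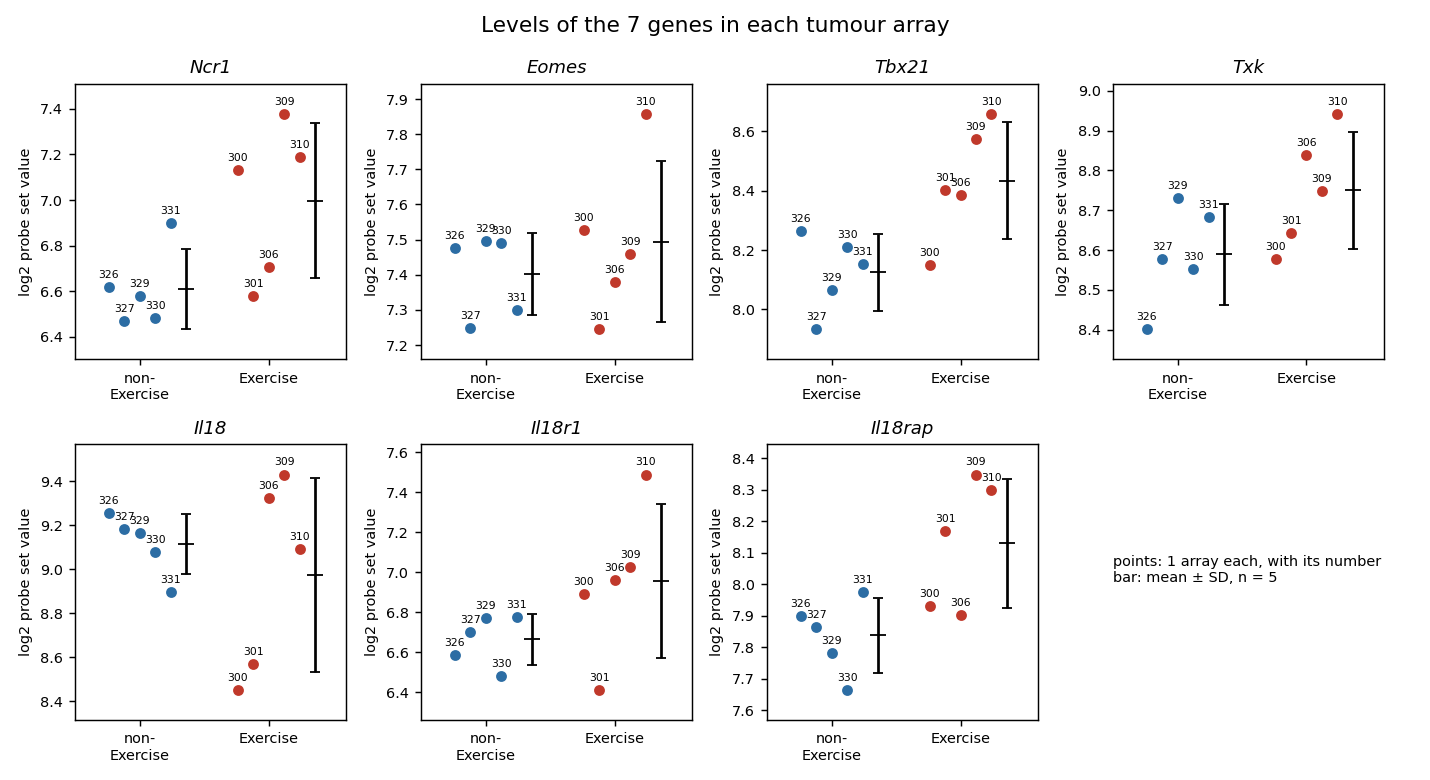
Log2 probe set value (y axis) of each of the 7 genes in the 5 non-Exercise (blue) and 5 Exercise (red) arrays; points are single arrays with their number, bars the mean ± SD. Ncr1 in Exercise arrays 300, 309 and 310 lies above all non-Exercise arrays, and Il18 in arrays 300 and 301 lies below all of them; the axes of the panels differ.

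NKp46 (Ncr1, probe set 10549647), which recognises ligands on stressed and tumour cells, read 7.13, 6.58, 6.71, 7.38 and 7.19 in Exercise arrays 300, 301, 306, 309 and 310. In non-Exercise arrays 326, 327, 329, 330 and 331 it read 6.62, 6.47, 6.58, 6.48 and 6.90. Arrays 300, 309 and 310 lay above every non-Exercise array, while 301 and 306 lay among them, so the groups overlapped. The means were 6.996 ± 0.339 (SD, n = 5) and 6.61 ± 0.17 (SD, n = 5), a change of 0.39 ± 0.14 (SE; 95% interval 0.08 to 0.70) or 1.31-fold. Its limma adjusted p was 0.0845, so it was not called. The call turned on single arrays: without array 301 the change was 0.49 with an adjusted p of 0.0190, and without array 306 it was 0.46 with 0.0482. The change was 0.24 with an adjusted p of 0.368 when the 3 arrays with hepatocyte transcripts were left out. In these bulk samples, a change in the number of cells of a type and a change in RNA per cell cannot be told apart.

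Of the adaptors of NKp46, Fcer1g rose and Cd247 was not called; the difference between their changes was not tested. Fcer1g read 10.69 to 12.13 in Exercise and 10.17 to 10.63 in non-Exercise arrays, with all 5 Exercise arrays above, and it rose by 1.18 ± 0.21 (SE, limma adjusted p = 0.00185). The change of Cd247 was -0.06 ± 0.10 (SE, limma adjusted p = 0.763). Fcer1g is also the adaptor of Fc receptors on macrophages, mast cells and neutrophils, whereas Cd247 belongs to T and NK cells.

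Of 12 measured genes of NKp46 adaptors and proximal signalling, 5 rose, 1 fell and 6 were not called, with a median change of 0.05 against -0.02 over all genes. Tyrobp, the DAP12 adaptor of other NK receptors and of many myeloid receptors, rose by 1.23 ± 0.22 (SE, limma adjusted p = 0.00210), from 8.87 to 9.50 in non-Exercise to 9.75 to 11.16 in Exercise arrays. Vav1, an exchange factor of blood cells, rose by 1.08 ± 0.23 (SE, limma adjusted p = 0.00547), the scaffold Lcp2 by 0.97 and the kinase Syk by 0.80. Plcg1, a phospholipase of T cells and of many other cell types, fell by 0.31 on the log2 scale ± 0.05 (SE, limma adjusted p = 0.000667), with 5 of 5 Exercise arrays below all others. The 6 not called were Cd247, Zap70 (0.04), Lat (-0.24), Fyn (0.02), Plcg2 (0.06) and Hcst, the DAP10 adaptor of NKG2D (-0.00). The counts were 5 and 1 with any 1 array left out, and 2 rose and 2 fell without the 3 arrays, when Vav1 (0.59, adjusted p = 0.0986), Lcp2 (0.28, 0.333) and Syk (0.53, 0.0733) were not called. The 2 that fell in that fit were Plcg1 (-0.29, limma adjusted p = 0.00873) and Lat (-0.41, limma adjusted p = 0.0305).

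Macrophage and monocyte markers were also higher in Exercise. Of 12 such markers 11 rose and 0 fell, with a median change of 0.94, among them the integrin Itgam (1.43), the scavenger receptor Msr1 (1.17) and the lysosomal protein Cd68 (0.76). The mean over the 12 was 9.88 to 11.09 in Exercise and 9.26 to 9.80 in non-Exercise arrays, and 6 of 12 rose without the 3 arrays. Their part in the changes of Fcer1g, Tyrobp and Ncr1 was not tested.

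Markers of NK cells other than the 7 genes rose in part. Of 20 measured NK cell markers 6 rose and 0 fell, with a median change of 0.31. The mean over the 20 was 7.44, 7.23, 7.76, 7.88 and 7.83 in Exercise arrays 300, 301, 306, 309 and 310, and 7.18 to 7.31 in non-Exercise arrays. Array 306 was therefore high in the NK cell markers and not in Ncr1, whereas array 300 was high in Ncr1 and closer to the non-Exercise range in the markers. Cd244a, the receptor 2B4, rose by 0.89 (limma adjusted p = 0.000845), and Klrd1, the CD94 chain of NKG2 receptors, by 0.65 (limma adjusted p = 0.0102). Klrk1 rose by 0.65 (limma adjusted p = 0.0294). Without the 3 arrays Klrd1 changed by 0.32 (limma adjusted p = 0.243) and Klrk1 by 0.12 (limma adjusted p = 0.612). Klrk1 also lost its call without any 1 of arrays 306, 309, 310, 326, 327, 329, 330 and 331 (limma adjusted p 0.0509 to 0.0716). The count of 6 became 10 without array 301, 3 without 306 and 2 without any 1 of arrays 309, 310, 327, 329, 330 and 331. Over all genes, the 1266 called higher became 1528, 1256 and 857 to 1133 in the same fits. Without the 3 arrays 1 marker rose (Cd244a, 0.64, limma adjusted p = 0.00612) and 1 fell (Klrc2, -0.46, limma adjusted p = 0.0453), with a median change of 0.10.

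Of 12 T cell markers 0 were called in either direction by limma, with 5 higher and 0 lower at an unadjusted p under 0.05. Without array 300 1 was called, and without array 301 5 were; without the 3 arrays 0 were called, with 0 higher and 1 lower at an unadjusted limma p under 0.05, and the median change was -0.04 against 0.30 with all arrays. Their mean was 8.06 to 8.09 in arrays 306, 309 and 310, 7.40 to 7.51 in the other Exercise arrays and 7.38 to 7.64 in non-Exercise arrays. The pan-leukocyte gene Ptprc (CD45) read 10.32, 9.06, 10.03, 10.84 and 10.88 in the Exercise arrays against 8.79 to 9.34 in non-Exercise arrays, so array 301 alone of the Exercise arrays lay within the non-Exercise range. It rose by 1.16 ± 0.27 (SE, limma adjusted p = 0.00921), and without the 3 arrays changed by 0.63 with an adjusted p of 0.131; with robust eBayes the adjusted p was 0.0554. Array 301 also held the lowest Ncr1, Eomes and Il18r1 of the Exercise arrays. Its Tbx21 (8.40) and Il18rap (8.17) went the other way and lay above all non-Exercise arrays. The part of leukocyte content in the values of the 7 genes was not tested.

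**Figure D2:**
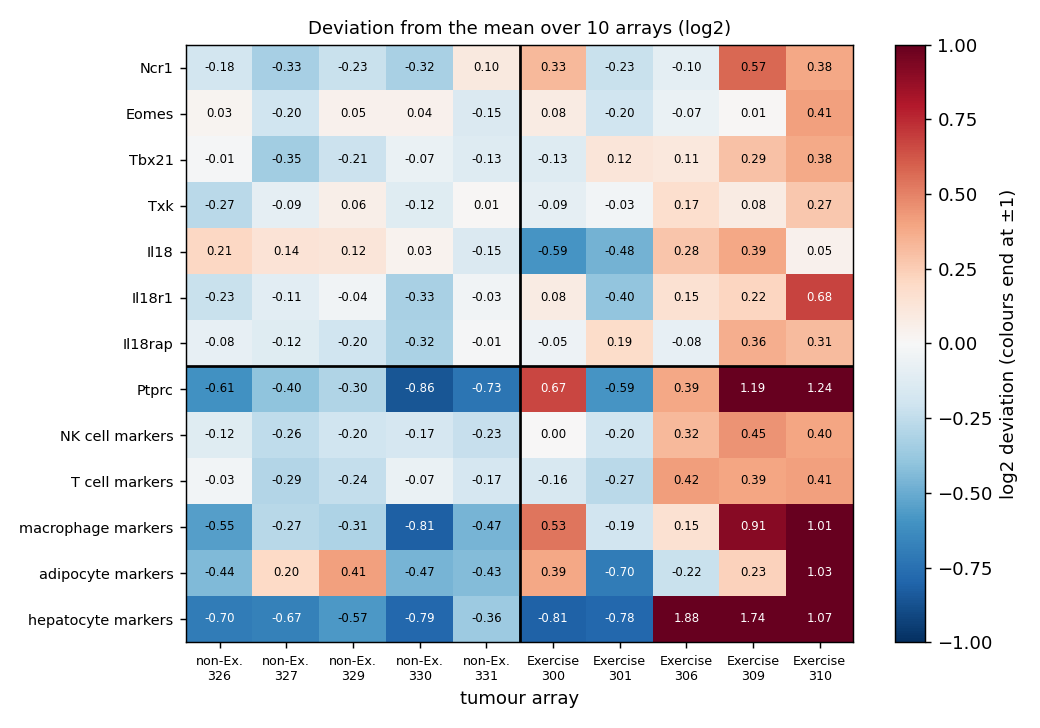
Deviation of each array (columns) from the mean over all 10 arrays, in log2 units, for the 7 genes, Ptprc and the mean of 5 marker lists (rows); each cell prints its value, and colours end at ±1. Arrays 309 and 310 are above the mean in every row, Il18 alone among the 7 genes is below -0.4 in both arrays 300 and 301, and the hepatocyte row is high in arrays 306, 309 and 310 only.

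The upstream promoter windows were searched on both strands for a RUNX motif (TGTGGT), a T-box core site (TCACACC) and an interferon-stimulated element (GAAA, any 2 bases, GAAA). They come from RefSeq and GRCm38.p6 and cover 250 bases before each listed start, 11 windows for the 7 genes. The RUNX motif was in 4 of the 11 windows (2 overlapping windows of Ncr1, 1 of 2 of Txk and that of Il18), against 14% of 32851 windows of all genes. The T-box core site was in 0 of 11, against 3.33% of windows, and the interferon-stimulated element in 1 of 11 (Eomes), against 2.98%, and no window of the 7 genes held matches to more than 1 of these motifs. Ncr1 is printed because it holds 2 RUNX matches, a number reached in 1.27% of windows; the first is on the gene's strand with its first base at position -176 from the start, and the other on the opposite strand at -41. Its window lies at chr7:4337465-4337714 on the plus strand, and capitals mark both matches.
Ncr1: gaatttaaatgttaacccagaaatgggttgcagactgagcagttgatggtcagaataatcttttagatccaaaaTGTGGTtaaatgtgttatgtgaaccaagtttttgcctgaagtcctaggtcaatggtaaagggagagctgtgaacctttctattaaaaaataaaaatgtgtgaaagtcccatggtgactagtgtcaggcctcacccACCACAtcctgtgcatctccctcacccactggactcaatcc

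T-bet and Eomes are close relatives that bind the same core sequence, and neither was called. T-bet (Tbx21, probe set 10390328), which NK cells need for their last steps of maturation, read 8.15, 8.40, 8.38, 8.57 and 8.66 in Exercise arrays 300, 301, 306, 309 and 310. The non-Exercise arrays 326, 327, 329, 330 and 331 read 8.27, 7.93, 8.06, 8.21 and 8.15. Every Exercise array but 300 lay above all non-Exercise arrays. The means were 8.43 ± 0.20 (SD, n = 5) and 8.12 ± 0.13 (SD, n = 5), a change of 0.31 ± 0.10 (SE; 95% interval 0.09 to 0.53) or 1.24-fold, with a limma adjusted p of 0.0559. Tbx21 was the member nearest to the threshold. It passed without array 300 (0.38, adjusted p = 0.0214), on the table as deposited (0.38, adjusted p = 0.0264) and with arrays centred on their medians (0.32, adjusted p = 0.0444). It also passed with robust eBayes (adjusted p = 0.0465) and without the lowest 25% of levels (adjusted p = 0.0441). With those 3 arrays left out the change was 0.15 with a limma adjusted p of 0.490.

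Eomes (probe set 10589994), which marks NK cells among innate lymphocytes, read 7.53, 7.25, 7.38, 7.46 and 7.86 in the Exercise arrays and 7.47, 7.25, 7.49, 7.49 and 7.30 in the non-Exercise arrays, in the same orders. Array 310 stood above the rest, and the other Exercise arrays spread over the non-Exercise range. The means were 7.49 ± 0.23 (SD, n = 5) and 7.40 ± 0.12 (SD, n = 5), a change of 0.09 ± 0.11 (SE; 95% interval -0.14 to 0.33), with a limma adjusted p of 0.673. The direction turned without the 3 arrays, where the change was -0.015 with a limma adjusted p of 0.959.

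The difference between the changes of Tbx21 and Eomes was tested on their log2 difference within each array, of which only the shift between groups has meaning. Tbx21 minus Eomes was 0.94 ± 0.22 (SD, n = 5) in Exercise and 0.72 ± 0.11 (SD, n = 5) in non-Exercise arrays. The shift of 0.22 had a two-sided exact permutation p of 0.0952 over all splits of the 10 arrays, 0.143 after adjustment over 3 such pairs, so the test did not separate the changes of these factors. Without array 300 the shift was 0.30 with an adjusted exact permutation p of 0.0238, and without the 3 arrays it was 0.16 with 0.381.

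Of 16 other measured factors of NK and innate lymphoid development, 2 rose, 0 fell and 14 were not called, with a median change of 0.02 against -0.02 over all genes. Nfil3 and Id2, which start the NK lineage, changed by -0.04 and -0.03, Ets1 by -0.16 (limma adjusted p = 0.0519) and Tox by 0.38 (limma adjusted p = 0.137). Runx3, the RUNX factor of cytotoxic T and NK cells, rose by 0.45 ± 0.13 (SE, limma adjusted p = 0.0348). Its adjusted p was 0.0554 to 0.0789 without any 1 of arrays 309, 310, 326, 327, 330 and 331, and 0.290 (change 0.23) without the 3 arrays. Klf2, a factor of lymphocyte trafficking that endothelium also expresses, rose by 0.24 ± 0.08 (SE, limma adjusted p = 0.0467). It passed with array 301 left out and lost its call without any other single array (0.0503 to 0.101), on the table as deposited (0.0604), with median centring (0.163), without the intensity trend (0.0647) and without the 3 arrays (0.214). The count of 2 was 4 without array 301, 1 without array 306 or 329, and 0 without any 1 of arrays 309, 310, 326, 327, 330 and 331 or without the 3 arrays. Of all genes, 1528 were called higher without array 301, 1256 without 306 and 911 without 329, against 1266 with all arrays. The number was 857 to 1133 without array 309, 310, 326, 327, 330 or 331. At an unadjusted limma p under 0.05, 4 factors were higher and 2 lower.

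Txk (probe set 10530516), a TEC family kinase of T and NK cells, read 8.58, 8.64, 8.84, 8.75 and 8.94 in Exercise arrays 300, 301, 306, 309 and 310 and 8.40, 8.58, 8.73, 8.55 and 8.68 in non-Exercise arrays 326, 327, 329, 330 and 331. The 3 arrays above all non-Exercise arrays were 306, 309 and 310, the same 3 that held hepatocyte transcripts. The change was 0.16 ± 0.09 (SE; 95% interval -0.04 to 0.36; limma adjusted p = 0.275), from 8.59 ± 0.13 to 8.75 ± 0.15 (SD, n = 5 each). Without those arrays it was 0.02 with a limma adjusted p of 0.937. Of the 3 other TEC kinases measured, Btk, the kinase of B cells and myeloid cells, rose by 0.58 ± 0.17 (SE, limma adjusted p = 0.0285), while Tec changed by 0.10 and Bmx by 0.09, neither of them called. Btk lost its call without any 1 of arrays 300, 309, 310, 326, 329 and 330 (limma adjusted p 0.0508 to 0.0746) and without the 3 arrays (change 0.31, 0.209).

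Interleukin-18 itself split the Exercise arrays. Il18 (probe set 10585194) read 8.45, 8.57, 9.32, 9.43 and 9.09 in Exercise arrays 300, 301, 306, 309 and 310, and 9.25, 9.18, 9.17, 9.08 and 8.90 in non-Exercise arrays 326, 327, 329, 330 and 331. Arrays 300 and 301 lay below every non-Exercise array and arrays 306 and 309 above every one. The SD was 0.44 in Exercise and 0.14 in non-Exercise (n = 5 each) around means of 8.97 and 9.11. The change was -0.14 ± 0.17 (SE; 95% interval -0.50 to 0.22) with a limma adjusted p of 0.665. The arrays on the higher side were those with hepatocyte transcripts, and without the 3 of them Il18 was lower by limma, with a change of -0.61 ± 0.11 (SE, adjusted p = 0.00418) that rests on arrays 300 and 301. The part of the hepatocyte transcripts in the Il18 level of arrays 306, 309 and 310 was not tested.

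The soluble inhibitor Il18bp was higher in Exercise tumours. It read 9.67, 9.43, 10.66, 10.94 and 10.05 in the Exercise arrays, where the non-Exercise arrays read 9.83, 9.33, 9.31, 9.37 and 9.05, in the same orders. Arrays 306, 309 and 310 lay above all non-Exercise arrays and 300 and 301 did not. Il18bp rose by 0.77 ± 0.24 (SE, limma adjusted p = 0.0411). It lost the call without array 306 (0.0898), 309 (0.0865), 310 (0.0614), 327 (0.0828), 329 (0.0850), 330 (0.0805) or 331 (0.0892), and its change was 0.17 (adjusted p = 0.547) without the 3 arrays. The call was also lost with eBayes without the trend (0.0616) and with robust eBayes (0.139).

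Relative to its inhibitor, interleukin-18 was lower in every Exercise array than in any non-Exercise array. The log2 difference Il18 minus Il18bp was -1.22, -0.87, -1.34, -1.51 and -0.96 in Exercise arrays 300, 301, 306, 309 and 310. It was -0.58, -0.15, -0.14, -0.29 and -0.16 in non-Exercise arrays 326, 327, 329, 330 and 331, so the groups did not overlap. Of single genes, 3.74% had every Exercise array above and 8.33% every Exercise array below, and the share among differences of 2 genes was not computed. The size of each difference depends on the probes, and only the shift between groups is read. The means were -1.18 ± 0.27 and -0.26 ± 0.19 (SD, n = 5 each), a shift of -0.92. The two-sided exact permutation p was 0.00794, the smallest that 5 against 5 arrays allow, and 0.0238 adjusted over the 3 pairs. That adjustment does not cover the choice of members and lists, which was made with earlier results of these data known. In arrays 300 and 301 the shift came with a low Il18, and in arrays 306, 309 and 310 with a high Il18bp. Without the 3 arrays with hepatocyte transcripts the shift was -0.78 with an exact permutation p of 0.0476, the smallest that 21 splits allow, and 0.143 after adjustment.

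**Figure D3:**
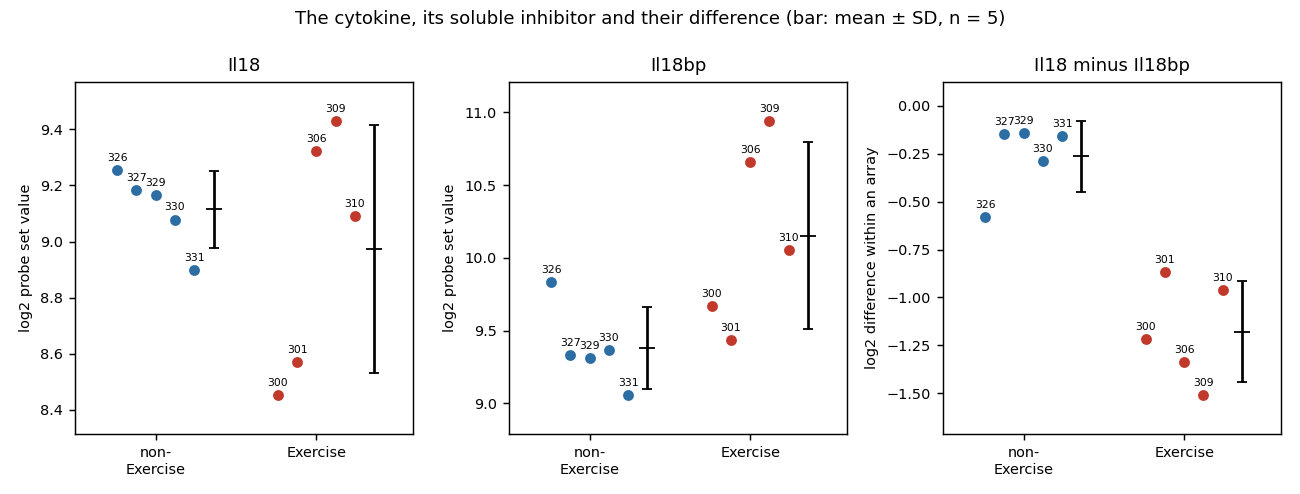
Log2 values (y axes) of Il18, of Il18bp and of their difference within each array, for 5 non-Exercise (blue) and 5 Exercise (red) arrays; bars are the mean ± SD. Both genes overlap between groups, whereas the difference lies between -1.51 and -0.87 in Exercise and between -0.58 and -0.14 in non-Exercise arrays.

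The promoter windows of this cytokine and its inhibitor are printed because their difference is the shift that passed its test. The Il18 window lies at chr9:50554450-50554699 on the plus strand and holds 1 RUNX match on the opposite strand, in capitals, at position -65. The Il18bp window lies at chr7:102018233-102018482 on the minus strand and holds none of the 3 motifs (both GRCm38.p6, RefSeq).
Il18: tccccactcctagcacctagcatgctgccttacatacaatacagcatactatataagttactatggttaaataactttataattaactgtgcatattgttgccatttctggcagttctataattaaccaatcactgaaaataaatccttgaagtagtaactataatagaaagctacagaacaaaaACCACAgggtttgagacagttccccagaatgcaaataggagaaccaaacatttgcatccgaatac
Il18bp: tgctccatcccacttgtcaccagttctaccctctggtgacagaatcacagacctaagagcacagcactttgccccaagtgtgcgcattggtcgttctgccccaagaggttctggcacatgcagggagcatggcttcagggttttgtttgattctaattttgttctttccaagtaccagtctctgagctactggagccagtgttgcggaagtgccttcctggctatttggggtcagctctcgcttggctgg

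Inflammasomes activate interleukin-18. Of 11 measured inflammasome genes 7 rose, 0 fell and 4 were not called, with a median change of 0.42 against -0.02 over all genes. Casp1, the protease that cuts the precursor, read 7.74 to 8.79 in Exercise and 7.43 to 7.90 in non-Exercise arrays and rose by 0.69 ± 0.18 (SE, limma adjusted p = 0.0166). It kept its call with any 1 array left out, and its change was 0.22 (adjusted p = 0.372) without the 3 arrays. Aim2, Mefv and Naip5 also lost their calls without them (0.259, 0.0746 and 0.292). The DNA sensor Aim2 rose by 0.65 ± 0.17 (SE, limma adjusted p = 0.0203), with 0.0506 without array 326 and 0.0555 without array 330. Mefv, which encodes the sensor pyrin, rose by 0.33 ± 0.09 (SE, limma adjusted p = 0.0217), with 0.0538 to 0.0624 without array 300, 326 or 327. Naip5, a sensor of bacterial flagellin, rose by 0.46 ± 0.13 (SE, limma adjusted p = 0.0233), with 0.0568 to 0.0638 without array 309, 326 or 330. The other 3 that rose were Nlrp3 (0.42), Nlrp1b (0.57) and the pore protein Gsdmd (0.51). The adaptor Pycard (ASC) changed by -0.00 and the caspase Casp4 by 0.32, neither of them called. The count of 7 was 4 without array 309, 3 without 327, 2 without 326 or 330, and 0 without the 3 arrays, when the median change was 0.22. Of all genes, 939 were called higher without array 309, 963 without 327, 860 without 326 and 857 without 330, against 1266 with all arrays. Myeloid cells express these genes, and the macrophage markers given above were also higher in Exercise. The 2 lists differed in array 301. There the macrophage mean (9.88) lay above the non-Exercise range (9.26 to 9.80). The inflammasome mean (8.05) lay within its own non-Exercise range (7.97 to 8.13). The part of myeloid cells in this count was not tested.

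The receptor chains Il18r1 and Il18rap lie next to each other on chromosome 1, with Il18rap the next protein-coding gene after Il18r1. Il18r1 (probe set 10345807), the chain that binds the cytokine, read 6.89, 6.41, 6.96, 7.02 and 7.49 in Exercise arrays 300, 301, 306, 309 and 310 and 6.58, 6.70, 6.77, 6.48 and 6.78 in non-Exercise arrays 326, 327, 329, 330 and 331. Array 301 was the lowest of all arrays, and the other 4 Exercise arrays were the highest. The change was 0.29 ± 0.15 (SE; 95% interval -0.03 to 0.62; limma adjusted p = 0.225), between means of 6.66 ± 0.13 and 6.95 ± 0.38 (SD, n = 5 each). Without array 301 Il18r1 was called, with a change of 0.43 and an adjusted p of 0.0266. The direction turned when the 3 arrays were left out, with a change of -0.014 (limma adjusted p = 0.967).

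Il18rap (probe set 10345824), which the receptor needs to signal, read 7.93, 8.17, 7.90, 8.35 and 8.30 in the Exercise arrays and 7.90, 7.87, 7.78, 7.67 and 7.97 in the non-Exercise arrays, in the same orders. Arrays 301, 309 and 310 lay above every non-Exercise array, and 300 and 306 did not. The change was 0.29 ± 0.10 (SE; 95% interval 0.07 to 0.52) or 1.22-fold, with a limma adjusted p of 0.0716, between means of 7.84 ± 0.12 and 8.13 ± 0.21 (SD, n = 5 each). It passed without array 306 (0.35, adjusted p = 0.0369) and on the table as deposited (0.36, adjusted p = 0.0336), and without the 3 arrays the change was 0.21 with a limma adjusted p of 0.302.

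The chains had nearly equal mean changes, and their Pearson correlation over the 10 arrays was 0.56, or 0.34 with group means subtracted. Both were highest in arrays 309 and 310, whereas array 301 was the lowest of 10 in Il18r1 and the third highest in Il18rap. Il18rap minus Il18r1 was 1.17 ± 0.38 in Exercise and 1.17 ± 0.11 in non-Exercise arrays (SD, n = 5 each), with an exact permutation p of 1. The shift was -0.14 to 0.091 with 1 array left out, and 0.23 without the 3 arrays (adjusted exact permutation p = 0.381).

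Of 10 measured genes of the interleukin-18 inhibitor and of signalling, 3 rose (with Il18bp), 1 fell and 6 were not called, with a median change of 0.04. The adaptor Myd88 rose by 0.49 ± 0.12 (SE, limma adjusted p = 0.0108), from 9.96 to 10.18 in non-Exercise to 10.24 to 10.97 in Exercise arrays, with all 5 Exercise arrays above. Irak3, which restrains Toll-like and interleukin-1 receptor signalling, rose by 0.75 ± 0.19 (SE, limma adjusted p = 0.0148) and also had no overlap. Sigirr, an inhibitory receptor of the same family, fell by 0.26 on the log2 scale ± 0.08 (SE, limma adjusted p = 0.0341), with all 5 Exercise arrays below. Sigirr lost its call without any 1 of arrays 300, 301, 326, 327, 329 and 330 (0.0522 to 0.103). With the 3 arrays left out, Irak3 (0.57, adjusted p = 0.0424) and Sigirr (-0.40, adjusted p = 0.0104) passed and Myd88 did not (0.25, adjusted p = 0.0779). Irak1, Irak2, Traf6, Tab1, Tab2 and Map3k7, the shared path to NF-kB, changed by -0.14 to 0.23 and were not called.

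Of 10 measured genes of interleukin-12 and interferon gamma, the partners of interleukin-18, 1 rose, 0 fell and 9 were not called, with a median change of 0.22. The 1 gene was Stat4, the transcription factor of interleukin-12 signalling, which read 7.37, 7.39, 7.93, 8.31 and 9.15 in the Exercise arrays and 6.51 to 7.02 in non-Exercise arrays. It rose by 1.14 ± 0.27 (SE, limma adjusted p = 0.0100), with no overlap, and by 0.49 (adjusted p = 0.0390) without the 3 arrays; with robust eBayes its adjusted p was 0.0539. Interferon gamma (Ifng) changed by 0.23 (limma adjusted p = 0.296), the receptor chains Il12rb1 and Il12rb2 by 0.40 (0.355) and 0.31 (0.0884), and the cytokine subunits Il12a and Il12b by 0.09 (0.753) and 0.36 (0.296). Ifngr2, the 1 gene of the list with a change below 0, changed by -0.14 (limma adjusted p = 0.0836). Without the 3 arrays it was called lower, with a change of -0.19 (limma adjusted p = 0.0411). The count that rose was 2 without array 300 or 301. The count that fell was 1 without array 309, without array 331 or without the 3 arrays.

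Over all 62 measured pathway genes, 19 rose, 2 fell and 41 were not called, with a median change of 0.11 against -0.02 over all genes. Of all genes tested, 6.35% were called higher and 10.6% lower. The count that rose was 12 without array 309, 11 without 326, 12 without 327, 10 without 330 and 4 without the 3 arrays. The count that fell was 1 without any 1 of arrays 300, 301, 326, 327 and 329, and 4 without the 3 arrays. In that last fit 3.78% of all genes were called higher and 8.09% lower. Of all genes, 939 were called higher without array 309, 860 without 326, 963 without 327 and 857 without 330, against 1266 with all arrays.

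**Figure D4:**
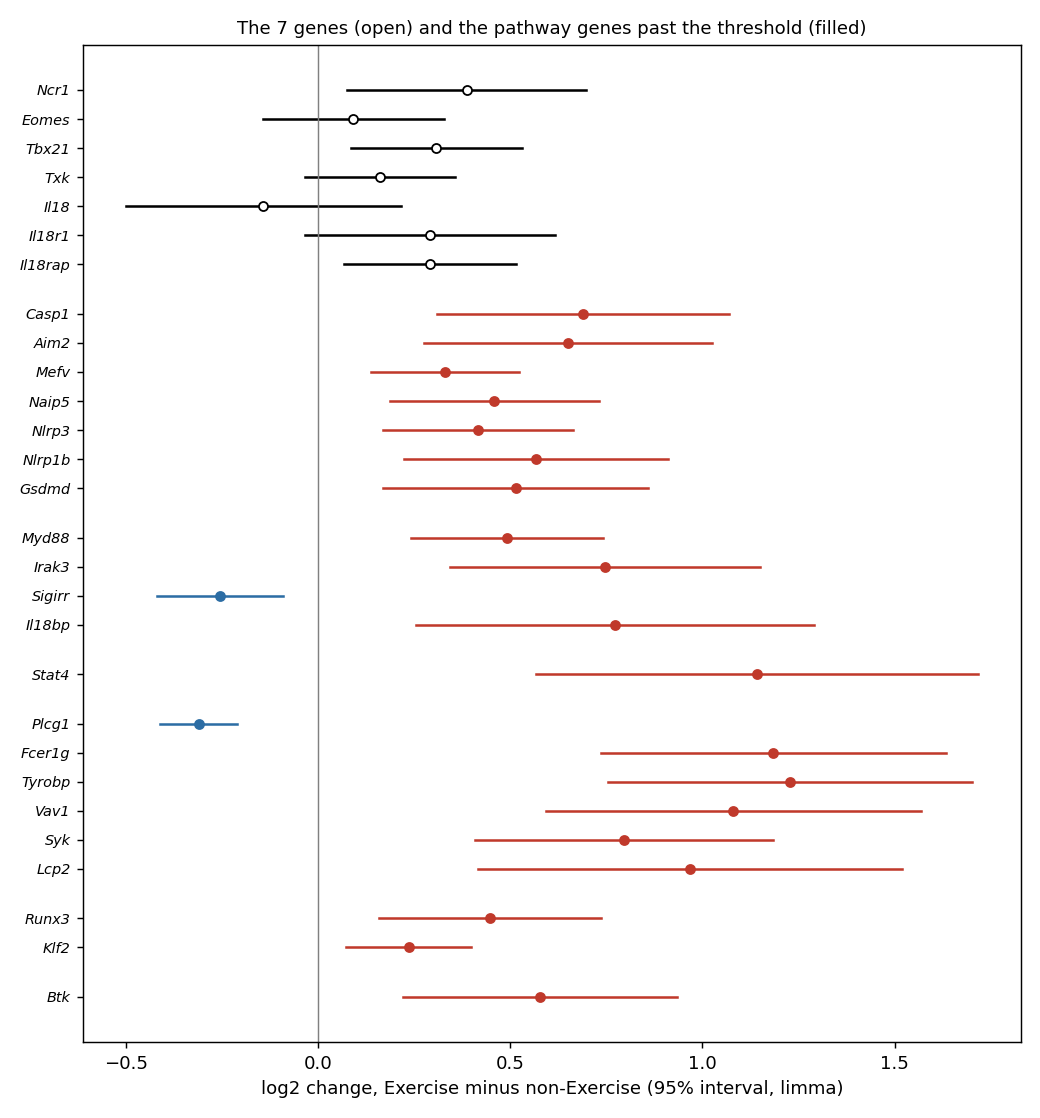
Log2 change, Exercise minus non-Exercise (x axis), with its 95% limma interval, for the 7 genes (open circles) and for the pathway genes past the threshold (filled, red higher and blue lower), grouped by list. The intervals of Eomes, Txk, Il18 and Il18r1 include 0, and the largest changes are those of Tyrobp, Fcer1g, Stat4 and Vav1, between 1.08 and 1.23.

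Among themselves, the 7 genes followed 2 arrays most. Array 310 was the highest of 10 in Eomes, Tbx21, Txk and Il18r1, and array 309 in Ncr1, Il18 and Il18rap. Array 310 was also the highest in Ptprc, with 309 next. Over the 10 arrays the Pearson correlation between members was highest for Tbx21 with Il18rap (0.79), Txk with Il18r1 (0.78), Ncr1 with Il18rap (0.74) and Ncr1 with Il18r1 (0.74), and that of Ncr1 with Eomes was 0.51. With group means subtracted these were 0.59, 0.70, 0.55, 0.64 and 0.45. Il18 correlated with Ncr1 at -0.01 and with Il18rap at 0.01. All of these points share their array and so its leukocyte and hepatocyte content.

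The genes most like each member over the 10 arrays were found by the same Pearson correlation and are given with the value after group means were subtracted. For Ncr1 they were the zinc-finger gene Zfp407 (0.95 and 0.91), Pdgfrb, the growth factor receptor of stromal cells and pericytes (0.93 and 0.89), and Prr16 (0.92 and 0.88). For Eomes they were the desaturase Scd1 (0.94 and 0.93), the NK receptor Klri1 (0.91 and 0.91) and Marveld1 (0.88 and 0.89). Scd1 is abundant in fat, and the mean of 7 adipocyte markers was highest in array 310 (10.17), the array in which Eomes was highest. Array 301 was the lowest in both. Arrays 300 and 329 had the next highest marker means after 310 (9.52 and 9.54) and also the next highest Eomes (7.53 and 7.49). Some other arrays differed: the marker mean was 8.69 and 8.67 in arrays 326 and 330, where Eomes read 7.47 and 7.49. In array 327 it was 9.33, where Eomes read 7.25. The part of fat in the Eomes level was not tested. For Tbx21 the protease Furin led (0.94 and 0.89), for Txk the interferon-inducible Ifi214 (0.92 and 0.88) and for Il18 the phosphatase Ptpn6 of blood cells (0.98 and 0.98). Ptpn6 was the 1 gene of 8 pan-leukocyte genes with a change below 0 (-0.10, limma adjusted p = 0.616). Without the 3 arrays it was called lower (-0.39, limma adjusted p = 0.00537). For Il18r1 Prdm1, which encodes the lymphocyte and myeloid factor Blimp-1, led (0.96 and 0.95), and for Il18rap Bcl3, a regulator of NF-kB (0.97 and 0.93). Of the 21 genes found in this way 3 were called, all higher and all among those of Il18rap, with limma adjusted p of 0.0267 for Bcl3, 0.0214 for Tarm1 and 0.0366 for Map3k3. Bcl3 lost its call without any 1 of arrays 309, 310, 326, 329 and 330 (0.0540 to 0.0719), Tarm1 without 309, 310, 327 or 330 (0.0506 to 0.0589), and Map3k3 without any 1 of 301, 309, 310, 326, 327, 329 and 330 (0.0520 to 0.0917) and with median centring (0.154).

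The deposited table holds no measure of background or detection, so it cannot be said which of the 7 genes were above it. Ncr1, Il18r1 and Eomes had mean levels in the lowest 25% of genes, where 2.51% of genes were called higher and 1.32% lower, against 11% and 17.9% in the highest 25%.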

How the data were processed

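Affymetrix whole-transcript arrays, 1 for each of 10 mouse melanoma tumours, were used. Per the labels' protocols, 1 of 2 column kits was used for extraction, without saying which for which tumour. The authors deposited probe set values summarised with PLIER, per the submitters' processing notes; neither its version nor any step between arrays is stated there. The deposited values, 4.66 to 14.55, were taken as log2 from their range. No scan date was used here, so no batch was tested, and the number of arrays limits the precision.

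Array medians differed by 0.126, over the limit of 0.1 set for it, so the table was quantile normalized (limma 3.58.1, R 4.3.3). Of 35556 probe sets, 21789 had 1 symbol, 1621 several and 12146 were not listed; 21698 matched RefSeq's GRCm38.p6 names by Entrez identifier and 0 symbols changed. Each gene is its probe set of highest mean. The two-sided test was eBayes with a trend on intensity after lmFit, adjusted by Benjamini-Hochberg over 19938 genes, and it was tested on simulated data. Paired-gene differences were tested over all splits of the arrays. Alternatives were the deposited table, median centring, no dim genes, the mean of probe sets, other variance models, the Wilcoxon test, another threshold, and leaving out each array or 3 arrays.

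The members and lists were chosen with earlier results of these data known. Named genes are the members, up to 4 called genes of each pathway list and 3 of each marker list by smallest p, Alb, Ttr, Ptprc, Il18bp and the 3 genes most correlated with each member, passing over predicted genes, clones, olfactory and vomeronasal receptors; uncalled list genes are named to show both sides, and Syk, Lcp2, Nlrp3, Nlrp1b and Gsdmd were added after their values were seen. 15 listed genes were not analysed here. No 2 arrays shared more than 1 value.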

Additional observations from a re-analysis of the deposited data

Results flagged for a closer look

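Of 134 groups of 5 arrays checked for 1 value far from the others, 7 were singled out (5.22%, where chance gives about 1 in 20), and none of them was a value of the 7 genes. In non-Exercise arrays, Sigirr was highest in array 326 at 10.16 (next 9.96), Stat4 lowest in array 330 at 6.51 (next 6.95), Klri1 lowest in array 327 at 6.84 (next 7.06), Ptpn6 lowest in array 331 at 10.37 (next 10.52) and Bcl3 lowest in array 330 at 8.70 (next 8.98). In Exercise arrays, Klrd1 was lowest in array 301 at 7.61 (next 8.34), the array with the lowest Ncr1, Eomes and Il18r1 of its group. Klri1, one of the genes most like Eomes, was highest in array 310 at 8.17 (next 7.24), the array that is also the highest in Eomes.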

How the results depend on the processing

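No paired analysis was possible because the groups share no replicate numbers. The direction of each member held under every alternative run except without Exercise arrays 306, 309 and 310, where Eomes (-0.015) and Il18r1 (-0.014) turned, as did Alb (-0.64), Ttr (-0.14), Scd1 (-0.079), Prdm1 (-0.0031) and Ces1f (-0.057). Members called higher numbered 0, against 2 on the deposited table, 1 with median centring, without the lowest 25% of levels and with robust eBayes, 3 at an adjusted p under 0.10 and 0 to 2 leaving out 1 array; 1 was called lower without the 3 arrays. Pathway genes called higher numbered 10 to 23 leaving out 1 array, 4 without the 3 arrays and 0 by the Wilcoxon test, whose smallest adjusted p was 0.0658. Those called lower numbered 4 as deposited, 6 with median centring, 5 at 0.10, 1 to 3 leaving out 1 array, 4 without the 3 arrays and 0 by the Wilcoxon test. Leaving out 1 array, the shift of Tbx21 minus Eomes was 0.16 to 0.30, that of Il18 minus Il18bp -0.99 to -0.84 (-0.78 without the 3 arrays) and that of Il18rap minus Il18r1 -0.14 to 0.091, turning without array 301 (-0.14), 309 (-0.04), 327 (-0.0046) or 329 (-0.04). The causes of these moves were not tested. Over all genes, median centring called 938 higher and 3076 lower, against 1266 and 2118. Ncr1, Eomes and Il18r1 have no value without the lowest 25% of levels.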

Other observations

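T-bet and the interleukin-18 receptor are also made by other innate lymphocytes, and the receptor by mast cells and basophils. Of 7 measured markers of group 1 and 3 innate lymphoid cells, Tnfsf10, the death ligand TRAIL, rose by 0.69 (limma adjusted p = 0.0415), and the integrin Itga1 and the phosphatase Inpp4b fell by 0.24 and 0.23 on the log2 scale (limma adjusted p = 0.0269 and 0.0206). Not called were Cd200r1 (0.65, limma adjusted p = 0.0669, all 5 Exercise arrays above), Cxcr6 (0.43, 0.120), Il23r (-0.08) and Il17a (-0.10). Group means of Itga1 (11.26 and 11.49) and Inpp4b (9.77 and 10.01) were above those of the other markers (6.81 to 8.05). Which cells made these 2 transcripts was not tested. Without the 3 arrays that hold hepatocyte transcripts none of the 7 was called, and with single arrays left out 0 to 3 rose and 0 to 2 fell. Of 9 neutrophil markers the receptor Csf3r (0.72, limma adjusted p = 0.00271) and the protease Mmp9 (0.79, limma adjusted p = 0.00463) rose, and their list mean was highest in array 301 (8.09); 4 of 9 rose without the 3 arrays, with a median change of 0.42 against 0.22. Of 7 mast cell and basophil markers the protease Mcpt4 rose (0.76, limma adjusted p = 0.0397), and of 5 B cell markers the receptor chain Cd79b rose (0.35, limma adjusted p = 0.0256); neither was called without the 3 arrays. With 1 array left out, Csf3r and Mmp9 kept their calls. Tnfsf10 lost it without any 1 of arrays 306, 309, 310, 327, 329, 330 and 331 (limma adjusted p 0.0715 to 0.0989), Itga1 without 301, 306, 327, 329, 330 or 331 (0.0531 to 0.0692) and Inpp4b without 326, 327 or 329 (0.0505 to 0.0621). Mcpt4 lost it without 309, 326, 327, 330 or 331 (0.0513 to 0.101) and Cd79b without 309, 326 or 329 (0.0584 to 0.0618). The mean of 10 keratinocyte markers was 8.10 to 8.37 in Exercise and 8.17 to 8.36 in non-Exercise arrays.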
